A study of Mus musculus with 2 samples.

Results

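The 9 genes described here encode the 3 peroxisome proliferator-activated receptors (Ppara, Ppard, Pparg), the 3 retinoid X receptors (Rxra, Rxrb, Rxrg) and the 3 coactivators of the PGC-1 family (Ppargc1a, Ppargc1b, Pprc1). They were taken by name, as every probe set that the platform annotation gives to exactly 1 of these symbols. This gave 18 of 45037 non-control probe sets, for 9 of 18193 genes with a probe set of their own. A further probe set, 1447902_at, is annotated to Ppard and a second gene and was left out. It read 18.4 in the pool labelled null and 85.3 in the pool labelled wild-type.

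RNA came from the skeletal muscle of Jhdm2a null mice and of wild-type mice, all male and 3 months old, on a background made from 129 embryonic stem cells and backcrossed for 4 generations to C57BL/6. Each genotype had 1 Affymetrix Mouse Genome 430 2 array, hybridised with RNA pooled from 3 mice, and the labels do not say which muscle was taken. Jhdm2a, now named Kdm3a, is an enzyme that removes methyl groups from lysine 9 of histone H3, and the series asks how muscle gene expression differs in its absence. With 1 pooled array a genotype there is no replicate and no test: a value called higher or lower describes these 2 arrays only, and their number limits the precision.

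PPARs are nuclear receptors that bind fatty acids and their derivatives. They sit on DNA as heterodimers with an RXR, which itself binds certain retinoids and also partners other nuclear receptors. PGC-1 coactivators do not bind these DNA sites themselves. They dock on PPARs and on other factors such as the oestrogen-related receptors and raise transcription of genes for mitochondria and fuel use. In muscle fibres PPAR alpha and PPAR delta are known for genes of fatty acid oxidation, PPAR gamma is the receptor of fat cells, and liver and brown fat are also rich in PPAR alpha.

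Values are MAS5 signals, the brightness of a probe set on a linear scale. Both arrays had a median of 112, and a signal floor of 182, the 60th percentile of both arrays, stood in for detection calls. A probe set that exceeded the floor in both pools is called measured, and a gene's log2 ratio (pool labelled null over pool labelled wild-type) is averaged over such probe sets. Of the 18 probe sets 15 were measured, in 8 of the 9 genes. Signals of different probe sets depend on their own probes, so no gene's level is set against another's. A signal summed over a list is compared between the pools only, and its brightest probe sets weigh most in it.

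Several checks bear on every value below. The Kdm3a probe set read 488 in the pool labelled null and 406 in the pool labelled wild-type, so the targeted transcript was not lower where the label says null. The sources used here do not say whether it lies within the disrupted sequence, so the RNA is named by its label throughout, and all directions rest on the labels. Muscle fibre markers, among them Acta1 (skeletal actin) and Ckm (muscle creatine kinase), were bright on both arrays, and all 20 listed were measured, with a median log2 ratio of 0.17. Markers of fat and liver were present too, and many of them were far lower in the pool labelled null. Ucp1, the uncoupling protein of brown fat, read 283 in the pool labelled null and 14885 in the pool labelled wild-type. Adipoq, the fat cell hormone adiponectin, read 1145 in the pool labelled null and 11443 in the pool labelled wild-type. Alb, the liver protein albumin, read 361 in the pool labelled null and 2635 in the pool labelled wild-type. Over all probe sets of the adipocyte list the summed signal was 40776 in the pool labelled null and 192050 in the pool labelled wild-type. Over the hepatocyte list it was 3993 in the pool labelled null and 30360 in the pool labelled wild-type. Over the brown adipocyte list it was 35155 in the pool labelled null and 75412 in the pool labelled wild-type. Most of the former came from Cox8b at 18805 and Cox7a1 at 13825, which read 20562 and 13555 in the pool labelled wild-type. In bulk RNA fewer cells of a type and less RNA per cell cannot be told apart.

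Among the 3 families, the PPAR genes Ppara and Pparg and the coactivator gene Ppargc1b were lower in the pool labelled null, while the 3 RXR genes, Ppargc1a and Pprc1 had nearly equal signals on both arrays. By ratio, 2 of the 8 measured genes were at least 1.5-fold lower, where 6.34% of all 9696 measured genes were, and 1 of the 8 was at least 2-fold lower, where 2.37% were. None of the 8 was at least 1.5-fold higher, against 3.38% of measured genes. When genes above the floor on 1 array only are added through a bound, 3 of the 9 were at least 1.5-fold lower, against 7.21% of 10687 genes, and 0 of 9 higher, against 3.54%. Of the 15 measured probe sets 7 lay below a log2 ratio of 0 and 8 above. Over all measured genes the median log2 ratio was 0.04, so more of them lay above 0 than below. Later counts below 0 stand beside this median.

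**Figure D1:**
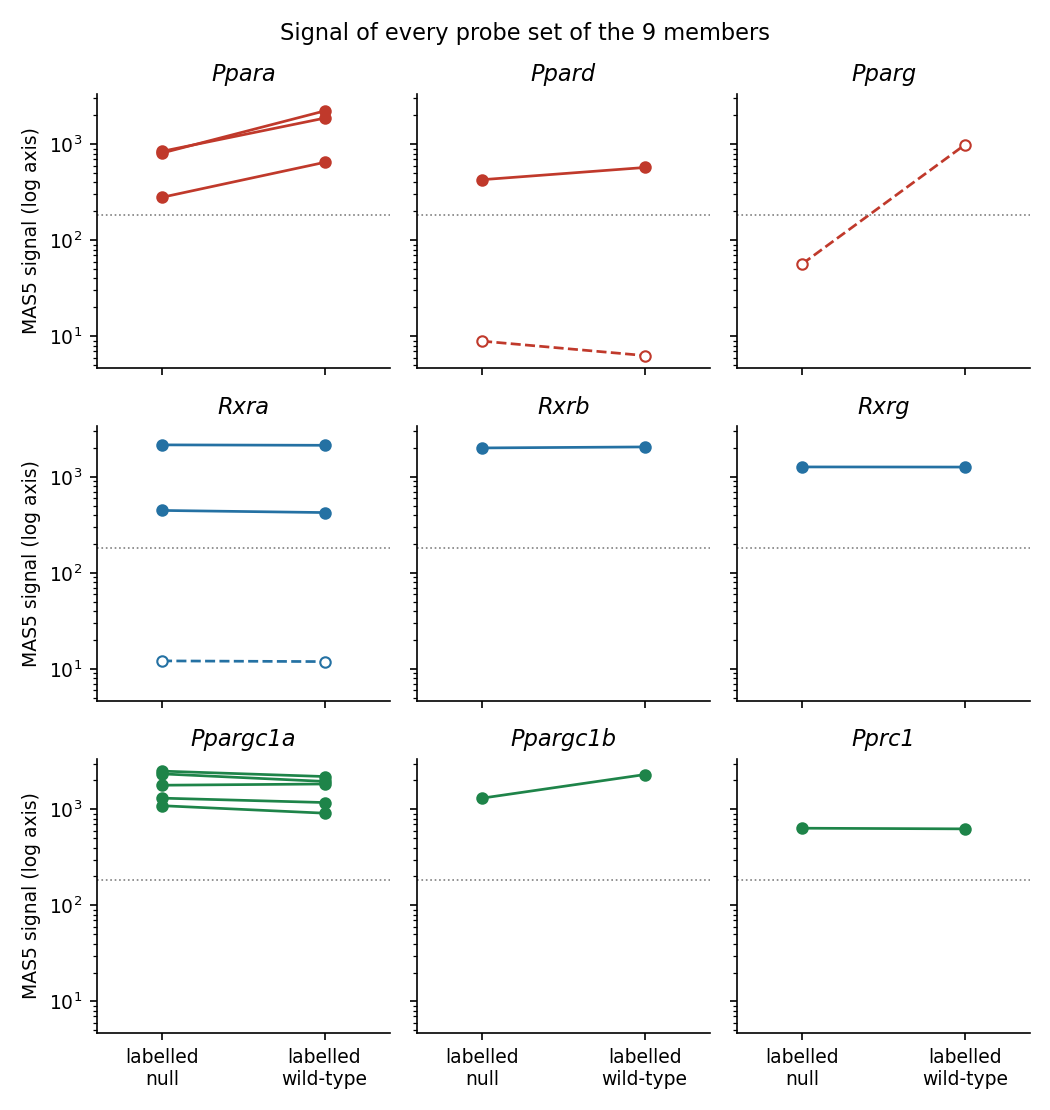
MAS5 signal (log axis) of all 18 probe sets of the 9 genes in the pool labelled null (left point) and in the pool labelled wild-type (right point). Filled points and solid lines are probe sets that exceed 182, the floor (dotted line), in both pools, open points and dashed lines the other 3. The lines of Ppara, Pparg and Ppargc1b are lower at the end labelled null, and those of the RXR genes are nearly level.

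Ppara encodes PPAR alpha, the receptor that turns on fatty acid oxidation genes when fatty acids are released, as in fasting. Its brightest probe set, 1439675_at, read 809 in the pool labelled null, against 2220 in the pool labelled wild-type, 2.74-fold lower. Probe set 1457721_at read 843 in the pool labelled null and 1868 in the pool labelled wild-type, 2.21-fold lower. The dimmest, 1449051_at, read 280 in the pool labelled null and 647 in the pool labelled wild-type, 2.31-fold lower. All 3 probe sets, which were designed from 3 different source sequences, were thus lower by a similar factor, and the gene's mean log2 ratio was -1.27 ± 0.16 (SD of 3 probe sets), or 2.41-fold lower. Of the 9696 measured genes 157, Ppara among them, had a ratio this low or lower. The pooled SD between probe sets of 1 gene was 0.29 over 3719 genes. Both SDs are technical and hold nothing of the variation between mice. PPAR alpha is also made in brown fat and liver. In the pool labelled null Ucp1 was 52.5-fold and Alb 7.29-fold lower, and Adipoq, of the adipocyte list, 9.99-fold lower. Of 7 measured brown adipocyte markers 2 were at least 1.5-fold lower, beside 6.34% of all measured genes. A further 4 exceeded the floor in the pool labelled wild-type only, each at least 11.5-fold lower. Among measured or bound genes, 7.21% of 10687 were at least 1.5-fold lower. The part of fat and liver cells in the Ppara difference was not tested.

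Pparg encodes PPAR gamma, the receptor on which fat cells depend for their formation and lipid storage. Its 1 probe set, 1420715_a_at, read 56.7 in the pool labelled null, under the floor, and 983 in the pool labelled wild-type, well above it. Set against the floor, Pparg was at least 5.40-fold lower, a log2 bound of -2.43. The bound follows the floor: it was -1.07 with the floor at the 75th percentile of signals and -3.14 at the 50th. With the floor at the 60th percentile it is larger than any ratio of the other 8 genes, and it rests on 1 probe set. In the adipocyte list 14 of 18 genes were measured and all 14 were below 0. Their median log2 ratio was -3.13, beside 0.04 for all measured genes. Of these 13 were at least 1.5-fold lower, beside 6.34% of all measured genes. Cebpa, a transcription factor gene that acts with PPAR gamma in fat cells, was 8.79-fold lower. The part of fat cells in the Pparg difference was not tested.

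Ppard encodes PPAR delta, whose activation raises oxidative metabolism in muscle fibres. Probe set 1439797_at read 427 in the pool labelled null and 572 in the pool labelled wild-type, a log2 ratio of -0.42 and short of 1.5-fold. The other probe set, 1425703_at, read 8.90 in the pool labelled null and 6.30 in the pool labelled wild-type, far under the floor on both. With no floor, so that this dim probe set counts as much as the other, the mean log2 ratio was 0.04. It was -0.71 when the dim probe set that Ppard shares with another gene was added too, an alternative chosen after seeing the data. Ppard thus had 1 probe set above the floor and no settled direction from the dim ones. The ratio of the measured probe set lay between the 5th and the 95th percentile of all measured genes (-0.67 and 0.53).

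**Figure D2:**
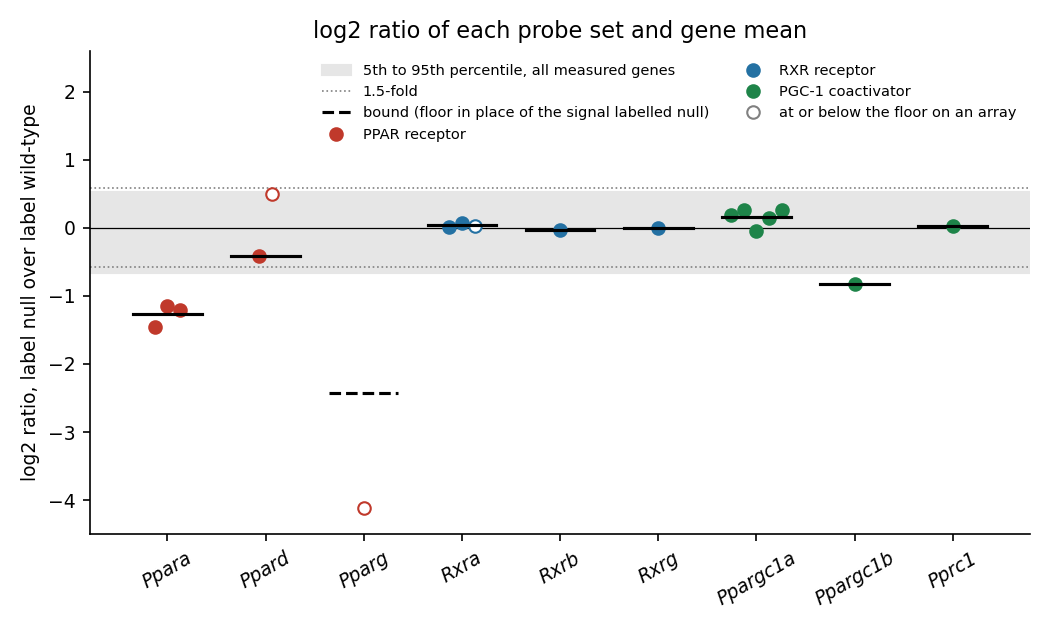
Log2 ratio, label null over label wild-type, of each probe set (points), with the gene mean over measured probe sets (black line) and, for Pparg, the bound (dashed line). Open points were at or below the floor on an array. Ppara at -1.27 and Ppargc1b at -0.82 lie under the grey band, the 5th to 95th percentile of all measured genes, and the RXR genes lie near 0.

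Of the 9 genes 8 have an entry in the RefSeq promoter table (build GRCm38.p6), with 13 start sites in all. The 250 bases before the start are shown for Ppara and for the 3 starts of Pparg, because these are the 2 PPAR genes that were lower, and for Ppargc1a as a gene with nearly equal signals. They are written 5′ to 3′ on the strand of the gene, with capitals for the half-site AGGTCA on either strand, the 6-base unit that PPAR and RXR heterodimers bind as a spaced repeat.

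Ppara, chr15:85735526-85735775, + strand: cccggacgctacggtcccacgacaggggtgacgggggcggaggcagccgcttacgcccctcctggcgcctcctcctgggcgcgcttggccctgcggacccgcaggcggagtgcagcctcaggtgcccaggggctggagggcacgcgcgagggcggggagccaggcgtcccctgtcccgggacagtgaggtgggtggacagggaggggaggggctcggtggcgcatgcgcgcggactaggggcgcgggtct

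Pparg start 1, chr6:115360894-115361143, + strand: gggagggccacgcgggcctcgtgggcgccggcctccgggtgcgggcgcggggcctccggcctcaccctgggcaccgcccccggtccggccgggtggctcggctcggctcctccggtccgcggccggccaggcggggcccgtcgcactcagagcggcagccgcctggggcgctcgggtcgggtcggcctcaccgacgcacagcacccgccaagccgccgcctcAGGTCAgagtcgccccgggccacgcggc

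Pparg start 2, chr6:115362099-115362348, + strand: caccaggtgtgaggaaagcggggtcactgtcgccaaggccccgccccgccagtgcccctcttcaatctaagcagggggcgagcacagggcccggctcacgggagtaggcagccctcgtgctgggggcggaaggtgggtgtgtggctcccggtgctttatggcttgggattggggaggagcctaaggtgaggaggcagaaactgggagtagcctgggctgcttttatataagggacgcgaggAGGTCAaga

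Pparg start 3, chr6:115421816-115422065, + strand: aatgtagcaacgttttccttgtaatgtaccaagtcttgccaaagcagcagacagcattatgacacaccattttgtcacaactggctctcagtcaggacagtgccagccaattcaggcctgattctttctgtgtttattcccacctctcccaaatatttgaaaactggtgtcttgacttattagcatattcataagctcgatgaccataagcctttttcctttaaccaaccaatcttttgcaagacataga

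Ppargc1a, chr5:51567726-51567975, - strand: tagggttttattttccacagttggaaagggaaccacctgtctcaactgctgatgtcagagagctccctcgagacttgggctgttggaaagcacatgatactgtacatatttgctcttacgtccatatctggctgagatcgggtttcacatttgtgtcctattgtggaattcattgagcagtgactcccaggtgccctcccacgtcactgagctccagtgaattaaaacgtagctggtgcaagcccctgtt

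The Ppara window holds 27 CpG dinucleotides, an observed over expected ratio of 0.763, and 76.4% G and C. The median of all 32851 windows of this length was 6.00 CpG, a ratio of 0.374 and 52.4% G and C. Ppargc1a, whose signals were nearly equal, has 5 CpG and 48.0% G and C. The other genes with nearly equal signals varied: the Rxra starts hold 40 and 1 CpG, the Rxrb starts 31 and 39, the Rxrg starts 6 and 7, and Pprc1 8. Of the 13 windows of the 9 genes, 9 had an observed over expected ratio above the median of 0.374. The 3 Pparg starts differ widely: starts 1, 2 and 3 hold 38, 12 and 2 CpG, and start 3 lies 60922 bases downstream of start 1. Alternative starts of this gene give the PPAR gamma isoforms, which were read here by 1 probe set only. The half-site occurs in the windows of Pparg starts 1 and 2, and in none of those of Ppara, Ppargc1a and Pparg start 3. Over all 13 windows 5 hold it, in 4 genes (Pparg, Rxra, Rxrg and Pprc1), and 14.0% of all windows do. The GC box GGGCGG, searched on both strands, occurs in 7 of the 13 windows, Ppara and Ppard among them, against 32.7% of all windows. An AGGTCA match and a GGGCGG match cannot share bases on either strand, although matches of 1 motif can overlap one another. A match describes the letters of a window only.

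The RXR genes encode the shared partner of the PPARs. Rxra, the widely expressed form, read 2148 in the pool labelled null and 2127 in the pool labelled wild-type in probe set 1454773_at. Its probe set 1425762_a_at read 446 in the pool labelled null and 424 in the pool labelled wild-type, and the gene's log2 ratio was 0.04 ± 0.04 (SD of 2 probe sets). A further probe set, 1430497_at, was under the floor at 12.1 in the pool labelled null and 11.9 in the pool labelled wild-type. Both measured Rxra probe sets were thus nearly equal on both arrays, and the dim one is no evidence either way.

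Rxrb, another widely expressed form, read 1996 in the pool labelled null and 2045 in the pool labelled wild-type, a log2 ratio of -0.03. Rxrg, the form that skeletal muscle is known to make, read 1266 in the pool labelled null and 1262 in the pool labelled wild-type, a log2 ratio of 0.00. The RXR ratios were smaller in size than the pooled SD between probe sets of 1 gene, 0.29. With 1 array a genotype, equal signals do not show that the mice were equal.

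Ppargc1a encodes PGC-1 alpha, the coactivator that exercise induces in muscle and that promotes mitochondrial biogenesis. It had 5 measured probe sets from 4 source sequences, the most of any of the 9 genes. Probe set 1434099_at read 2500 in the pool labelled null and 2196 in the pool labelled wild-type, and 1434100_x_at, from the same source sequence, read 2340 in the pool labelled null and 1953 in the pool labelled wild-type. These 2 probe sets are not independent readings. Probe set 1460336_at read 1783 in the pool labelled null and 1836 in the pool labelled wild-type, the 1 of the 5 that was lower. Probe set 1456395_at read 1308 in the pool labelled null and 1177 in the pool labelled wild-type. Probe set 1437751_at read 1091 in the pool labelled null and 912 in the pool labelled wild-type. The mean log2 ratio was 0.16 ± 0.12 (SD of 5 probe sets), or 1.12-fold higher, within the range of most genes and close to the median of the muscle fibre markers.

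Ppargc1b encodes PGC-1 beta, which shares with PGC-1 alpha the docking to PPARs and oestrogen-related receptors and is made in oxidative tissues, brown fat and heart included. Its 1 probe set, 1449945_at, read 1308 in the pool labelled null and 2301 in the pool labelled wild-type, a log2 ratio of -0.82 and 1.76-fold lower. Of the 9696 measured genes 339, Ppargc1b among them, were this low or lower. Of 7 measured brown adipocyte markers 6 were below 0 and 2 were at least 1.5-fold lower, beside 6.34% of all measured genes. Another 4 were lower by a bound, each at least 11.5-fold. Measured or bound, 7.21% of 10687 genes were at least 1.5-fold lower. The part of brown fat in the Ppargc1b difference was not tested. Pprc1, which encodes the more distant family member PRC, a growth-regulated coactivator, read 636 in the pool labelled null and 626 in the pool labelled wild-type, a log2 ratio of 0.02. The 3 coactivator genes thus gave 1 lower and 2 nearly equal values.

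**Figure D3:**
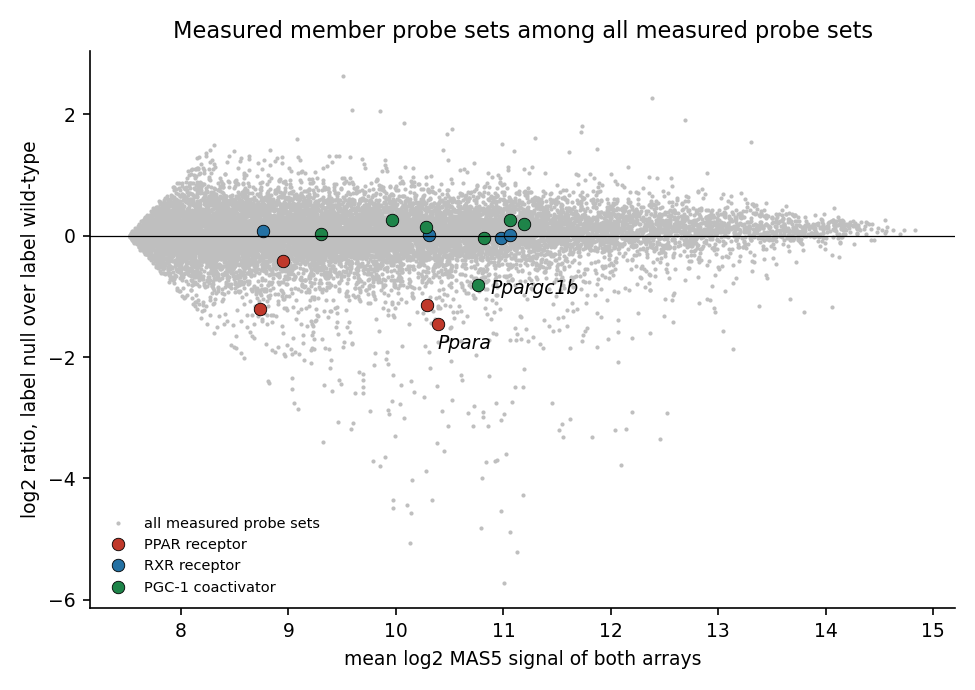
Log2 ratio, label null over label wild-type, against mean log2 MAS5 signal for every measured probe set (grey) and for the 15 measured probe sets of the 9 genes (colours by family). The 3 Ppara probe sets and that of Ppargc1b lie below the bulk of grey points at their signal, and the RXR probe sets lie within it.

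Many genes known as PPAR targets were also lower in the pool labelled null, while others had nearly equal signals. The list of 25 targets in fatty acid oxidation had 18 measured genes with a median log2 ratio of -0.50, beside 0.04 for all measured genes. Of the 18, 17 were below 0, 5 were at least 1.5-fold lower and 0 higher, so 27.8% were lower by this rule, beside 6.34% of all measured genes. Ehhadh, a peroxisomal enzyme of fatty acid oxidation, read 254 in the pool labelled null and 905 in the pool labelled wild-type and was lowest at -1.83. The thiolase Acaa2 had -0.95 ± 0.29 (SD of 3 probe sets), the carnitine palmitoyltransferase Cpt2 -0.93, and the carnitine carrier Slc25a20 -0.77 ± 0.08 (SD of 2 probe sets). Acaa1b, a peroxisomal thiolase, exceeded the floor in the pool labelled wild-type only and was at least 6.22-fold lower. Cpt1a at -0.06 ± 0.11 (SD of 2 probe sets) and Mlycd at 0.02 were nearly equal on both arrays.

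The second list, of 25 other PPAR targets, had 18 measured genes with a median of -0.94, beside 0.04 for all measured genes. Below 0 were 16 of them, and above 0 were 2. Of the 18, 11 (61.1%) were at least 1.5-fold lower and 0 higher, beside 6.34% and 3.38% of all measured genes. The lowest members of this list are genes of fat cells and gluconeogenic tissues. Cidea and Cidec, lipid droplet proteins of fat cells, had -5.21 and -4.02, Pck1, an enzyme of gluconeogenesis, -4.54, and Adipoq -3.32. Fabp1, the fatty acid binding protein of liver, was at least 3.65-fold lower. Ucp3 and Fabp3 were the 2 above 0, at 0.46 ± 0.45 and 0.25 ± 0.04 (SD of 2 probe sets each). Pdk4 was nearly equal on both arrays at -0.11, as were Lpl at -0.12 ± 0.24 and Slc27a1 at -0.05 ± 0.02 (SD of 2 probe sets each). An alternative chosen after seeing the data left out the genes that also stand in the adipocyte, brown adipocyte or hepatocyte lists. Then 7 of 14 passed 1.5-fold lower, beside 6.34% of all measured genes, with a median of -0.57. Pck1 stands in none of those lists and was kept, so the remainder is not free of genes of such tissues. The median of the whole list was -0.53 with the floor at the 75th percentile, and also -0.53 without probe sets whose ID ends in _s_at, _x_at or _a_at. Summed over the list, signal was 125087 in the pool labelled null and 219386 in the pool labelled wild-type. Fat and liver markers moved with these targets, and their part was not tested.

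**Figure D4:**
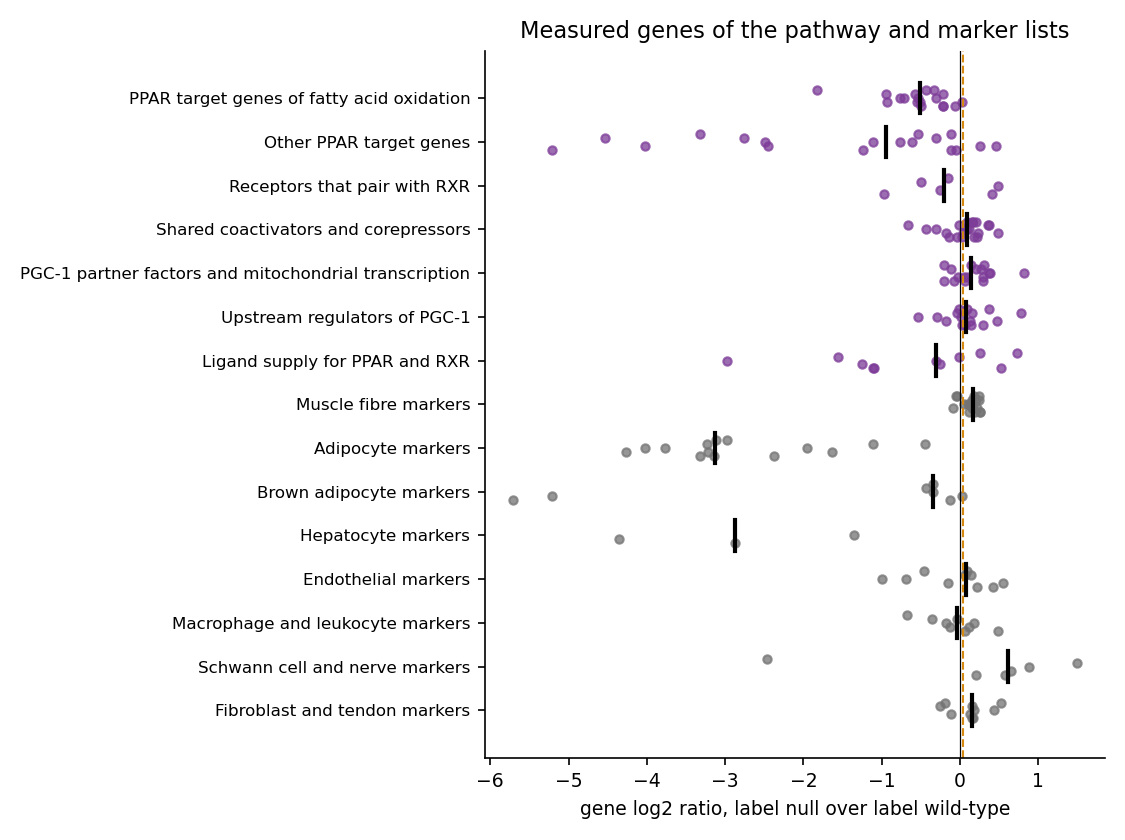
Log2 ratio, label null over label wild-type, of each measured gene (points) in 7 pathway lists (purple) and 8 cell type marker lists (grey), with the list median (black bar) and the median of all measured genes, 0.04 (dashed line). The PPAR target lists have medians of -0.50 and -0.94, the adipocyte list -3.13, and the muscle fibre list 0.17.

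Among genes that work beside the 9, the lists of receptors, cofactors and regulators had medians between -0.20 and 0.14, and each count below stands beside 6.34% of all measured genes lower and 3.38% higher. Of 13 receptors that can pair with an RXR, 6 were measured, with a median of -0.20. Nr1h3, a liver X receptor made in fat, liver and macrophages, was 1.96-fold lower at -0.97. The retinoic acid receptors Rarg and Rarb had -0.50 and 0.48 and the orphan receptor Nr4a2 0.41 ± 0.29 (SD of 4 probe sets), all 3 short of 1.5-fold. Another 6 receptors of that list, the vitamin D receptor Vdr among them, were under the floor in both pools, and Nr1h2 had no probe set with 1 symbol here.

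Of 23 shared coactivators and corepressors 21 were measured, with a median of 0.09. Helz2, a PPAR coactivator, was the 1 gene at least 1.5-fold lower, at -0.66, and 0 were higher. The coactivator Ncoa2 had 0.48, Cited2 0.37 ± 0.32 (SD of 2 probe sets) and Prdm16, a coregulator of brown fat identity, -0.43.

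Factors that PGC-1 coactivates, with the mitochondrial transcription machinery, had 17 of 17 genes measured and a median of 0.14. Mef2a, a muscle transcription factor, was the 1 gene at least 1.5-fold higher, at 0.82 ± 0.21 (SD of 4 probe sets), and 0 were lower. The oestrogen-related receptor Esrrg had 0.38, and the mitochondrial factors Tfam and Tfb2m had 0.37 ± 0.21 (SD of 2 probe sets) and 0.31. Regulators upstream of PGC-1 had 16 of 18 measured and a median of 0.08. Mapk14, the kinase p38 alpha, was the 1 past 1.5-fold, with 0.78 ± 0.76 (SD of 2 probe sets), a spread about as large as its mean. The calcineurin subunit Ppp3cb had 0.47 ± 0.65 (SD of 4 probe sets), the CREB coactivator Crtc2 -0.53 and the deacetylase Hdac5 0.37.

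Among genes that supply or carry PPAR and RXR ligands, 11 of 17 were measured, with a median of -0.31. Of these 5 were at least 1.5-fold lower and 1 higher, beside 6.34% and 3.38% of all measured genes. These were the lipases Lipe, Mgll and Pnpla2 at -2.98, -1.56 ± 0.20 (SD of 3 probe sets) and -1.10, and the fatty acid binding proteins Fabp5 and Fabp4 at -1.25 ± 0.04 and -1.11 ± 0.10 (SD of 2 probe sets each). Lipe and Fabp4 stand in the adipocyte list as well. Aldh1a1, an enzyme that makes retinoic acid, was the 1 gene at least 1.5-fold higher, at 0.73, with 9219 in the pool labelled null and 5576 in the pool labelled wild-type.

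The marker lists of other cells gave medians of 0.08 for endothelium, -0.04 for macrophages and leukocytes, 0.61 for Schwann cells and nerve and 0.15 for fibroblasts and tendon. Brown adipocyte markers had a median of -0.34 over 7 measured genes, and 4 more, such as Elovl3, exceeded the floor in the pool labelled wild-type only. Hepatocyte markers had 3 measured genes, all at least 1.5-fold lower, beside 6.34% of all measured genes. Another 9 were lower by a bound, some of them with a bound short of 1.5-fold, and 6 were under the floor in both pools. Measured or bound, 7.21% of 10687 genes were at least 1.5-fold lower.

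**Figure D5:**
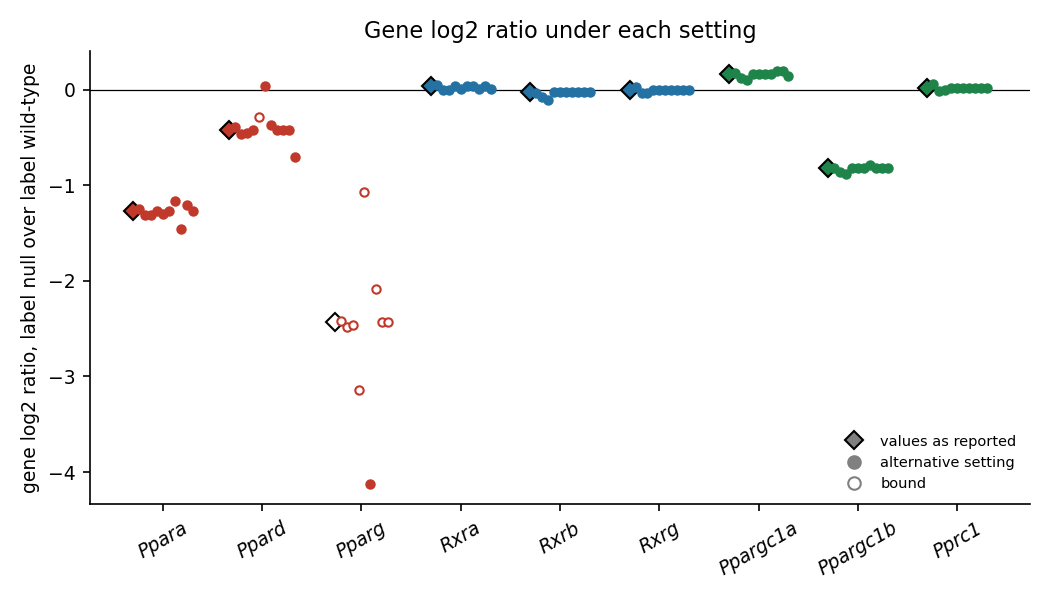
Gene log2 ratio, label null over label wild-type, of the 9 genes as reported (diamonds) and under each alternative setting (circles), with open symbols for bounds. Ppara lies between -1.46 and -1.17 and Ppargc1b between -0.88 and -0.79 in all of them, whereas the Pparg bound runs from -3.14 to -1.07 as the floor is changed and is -4.12 with no floor.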

How the data were processed

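The authors' deposited table holds linear signal intensities, 1 for each probe set and pooled array. They were made with MAS5, per the submitters' processing notes, with no version or settings stated in the sources used here. Both columns had a 2% trimmed mean of 500, so the values were used as deposited. Groups came from the source label, and 0 columns belonged to other samples.

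Control probe sets, 64 in number, were not used. Of the other 45037, 34945 had 1 gene symbol in the platform annotation, 932 several and 9160 none here. A gene with no probe set above the floor of 182 on 1 array was given a bound, its brighter signal over the floor. Log2 ratios were taken with no pseudocount. RefSeq names (GRCm38.p6) matched 34741 probe sets and 0 symbols were renamed. Promoter windows were the 250 bases before each RefSeq start.

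The 9 genes, the 15 lists and the 1.5-fold rule were chosen with earlier results of these data known. Named are the 9 genes, up to 4 measured genes of each pathway list with the largest absolute log2 ratio, and checks of tissue and target. The rule also named the 5 genes nearest to Ppara in signal. They are not given, because signals of different probe sets are not comparable as levels and matching both signals fixes the ratio. The rule covers the marker lists too, which are given by medians and the few genes a result needs. Pnpla2, Acaa1b, Fabp1, Cebpa, Vdr, Nr1h2, Aldh1a1 and Elovl3 fall outside it and were chosen after their values were seen. So do and were Cpt1a, Mlycd, Ucp3, Fabp3, Pdk4, Lpl, Slc27a1, Cox8b and Cox7a1. The ratio procedure was tested on simulated data. No test between genotypes was run, because 1 array each leaves no residual degrees of freedom. Alternatives were quantile normalization, a median ratio of 0, loess with a span of 0.4, floors at the 50th and 75th percentiles or none, 64 added to every signal, the brightest probe set or the median of probe sets, and leaving out probe sets whose ID ends in _s_at, _x_at or _a_at. Python 3.11.15, pandas 2.3.3, numpy 2.4.6 and statsmodels 0.14.6 were used.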

Additional observations from a re-analysis of the deposited data

How the results depend on the processing

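There were 10 alternatives, and 3 more values added after seeing the data. Of 112 recomputed ratios and list medians, 101 moved by no more than the spread between probe sets. That spread was the gene's own SD, or the pooled 0.29 for single probe sets, bounds and list medians. Several of the 112 could not move. Ppargc1b, Rxrb, Rxrg and Pprc1 have 1 probe set each, so the floors and probe set choices returned the same value. Leaving out fat and liver marker genes took none from the oxidation list. The count is therefore no measure of stability. With bounds not counted, 2 of the 8 measured genes were at least 1.5-fold lower and 0 higher under each of the 10 but the one with no floor. With the floor at the 75th percentile these were 2 of 7. The shares of all measured genes under these alternatives were 5.06% to 7.29% lower and 2.35% to 4.08% higher. With no floor Pparg made 3 of 9 lower and 0 were higher, beside 16.8% of 18193 genes lower and 12.4% higher. Rxra had 0.00 with the median ratio set to 0 and -0.01 after loess, against 0.04, and Ppara had -1.46 from its brightest probe set. Ppard had 0.04 with no floor, where its dim probe set enters, and -0.71 when the probe set shared with a second gene was added as well. The Pparg bound was -3.14 with the floor at the 50th percentile, -1.07 at the 75th and -2.09 with 64 added, and with no floor its ratio was -4.12. Its 1 probe set ends in _a_at, so leaving out such probe sets gave no value. The median of the other PPAR targets was -0.53 with the floor at the 75th percentile and -0.53 without _s_at, _x_at and _a_at probe sets. It was -0.57 without the genes of the fat and liver marker lists, and each of these medians is over fewer genes. Signals under the floor limit Pparg to a bound, and no alternative speaks to variation between mice. No paired analysis was possible because each genotype has 1 array.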
